A study of Homo sapiens with 12 samples.

Results

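The zinc finger genes of human chromosome 19 were examined in RD cells after siRNA against EHMT1. The set was all protein-coding genes whose symbol is ZNF followed by digits and that GENCODE release 29 places on chromosome 19, plus ZIK1, which was added by name with its fall in these libraries already known. The annotation held 241 such genes, and 226 had at least 10 counts in at least 3 of the 6 libraries, out of 61552 genes listed and 18646 tested. The count filter took all 6 libraries without regard to group, and 0 genes passed it through the libraries of 1 group only. Thus the single genes were chosen by symbol, position and level, apart from ZIK1, which was selected on its change. The family as a whole was taken up with earlier results of these libraries known, so its counts of falls are a description. Of the 226 genes, 47 lie in band 19p13, 24 in 19p12, 1 in 19q12 and 154 in 19q13.

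RD is an established human line of embryonal rhabdomyosarcoma, a tumour whose cells resemble immature muscle, with FN-RMS given as its genotype. Polyadenylated RNA was sequenced from cells transfected with a scrambled siRNA (3 libraries) or with an siRNA against EHMT1 (3 libraries), both delivered with Lipofectamine RNAiMAX and collected after 48 h. The labels name 1 cell line and do not say whether each replicate was its own culture, so the spread behind the p-values may be technical. The 6 libraries of a SOX8 siRNA experiment in the same series were not analysed here.

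Most of these genes encode proteins with a row of C2H2 zinc fingers, which bind DNA, and many also carry a KRAB domain, which recruits the corepressor TRIM28. TRIM28 brings the histone methyltransferase SETDB1, which places trimethylation on lysine 9 of histone H3 and silences many retrotransposons. The family arose by repeated duplication, so its members lie side by side in clusters, and chromatin over their coding ends often carries the same mark. EHMT1, also called GLP, works with its partner EHMT2 (G9a) and places mainly mono- and dimethylation on that lysine. The comparison asks what the transcripts of this gene family do when EHMT1 is lowered.

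The libraries held 40639655 to 47258481 gene counts, and a count of 0 allows a level of up to 0.0635 to 0.0738 CPM (counts scaled to library size), the value of 3 counts, with counting error alone considered. EHMT1 itself was at 139 ± 14.7 CPM (SD, n = 3) with scrambled siRNA and 55.1 ± 2.26 CPM (SD, n = 3) with EHMT1 siRNA, which left 39.6%, and the groups did not overlap (exact two-sided permutation p = 0.1, the smallest that 3 against 3 libraries can give). Of 11 muscle markers 9 were above 1 CPM, with MYOD1 and DES among them and MYF5 at 0. Among the 9 markers tested 0 fell and 2 rose (CHRNG and PAX7), while 6.54% of all genes tested fell and 5.81% rose. With EHMT1 siRNA replicate 3 left out, PAX7 was no longer called. The summed level of the muscle markers was 1253 to 1428 CPM with scrambled and 1402 to 1468 CPM with EHMT1 siRNA. Summed markers of epithelium (3.83 to 5.33 CPM), blood (0.639 to 1.15 CPM) and endothelium (0.283 to 0.852 CPM) were low in both groups, with KRT5 and CDH1 at or near 0 and HBB at 0. The part of the muscle markers in the results that follow was not tested. The scrambled libraries differed more among themselves (chi-square per degree of freedom 8.90 to 20.8 between pairs) than the EHMT1 siRNA libraries did (2.96 to 3.35), and scrambled replicate 2 stood apart. In bulk RNA, fewer cells expressing a gene and less RNA per cell cannot be told apart.

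The chromosome 19 zinc finger genes moved mostly one way. With EHMT1 siRNA, 67 of the 226 fell and 1 rose at an edgeR adjusted p under 0.05. Leaving out ZIK1, 66 of 225 (29.3%) fell. Over all genes tested 6.54% fell and 5.81% rose, so calls over the whole genome were about evenly divided between directions and those in this family were nearly all falls. A lean to falls was also present in ZNF genes on other chromosomes (33 fell, 3 rose, of 220) and in other protein-coding genes of chromosome 19 (93 fell, 38 rose, of 796). The changes were small: the median log2 fold change was -0.17 (middle range from -0.33 to -0.07), beside 0.00 over all genes tested. The 67 genes that fell lost between 14% and 55.7% of their scrambled mean, and 10 fell by more than 1.5-fold. The log2 value was below 0 in 196 of the 226 (86.7%), compared with 49.8% of all genes tested. In 105 of the 226 (46.5%) all 3 EHMT1 siRNA libraries lay below all 3 scrambled libraries, where 15.5% of all genes tested did so, and in 6 they lay above them, where 15.4% of all genes did.

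The same shift was visible in the libraries one by one. The 226 genes summed to 4289, 4068 and 4107 CPM in scrambled replicates 1, 2 and 3 and to 3678, 3667 and 3584 CPM in EHMT1 siRNA replicates 1, 2 and 3. All EHMT1 siRNA libraries were below all scrambled libraries, and the mean was 12.3% lower. For the median gene, the log2 distance from the scrambled mean was 0.05, -0.04 and -0.01 in the scrambled libraries and -0.18, -0.16 and -0.24 in the EHMT1 siRNA libraries.

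The number of falls depended on which library was left out, and in the 6 fits that left out 1 library the share of the family that fell stayed above that of all genes tested. Without EHMT1 siRNA replicate 1, 2 or 3, 39 (17.3%), 37 (16.4%) and 32 (14.2%) of the genes fell, and 3.16%, 2.54% and 2.76% of all genes tested. Without scrambled replicate 2, 90 (39.8%) fell, and 10.0% of all genes tested. Of the 67 genes, 29 were called in each of the 6 fits that left out 1 library. Counts from the minority strand column, which held 11% to 12.9% of the strand-specific counts, called only ZNF787 among them, 0.535% of the family genes tested there, which was no more than the 0.546% of all genes. With these fewer counts 177 genes were called in all, in either direction. The family median there was -0.16, with 126 of 187 genes below 0, beside a median of 0.00 over all genes.

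**Figure D1:**
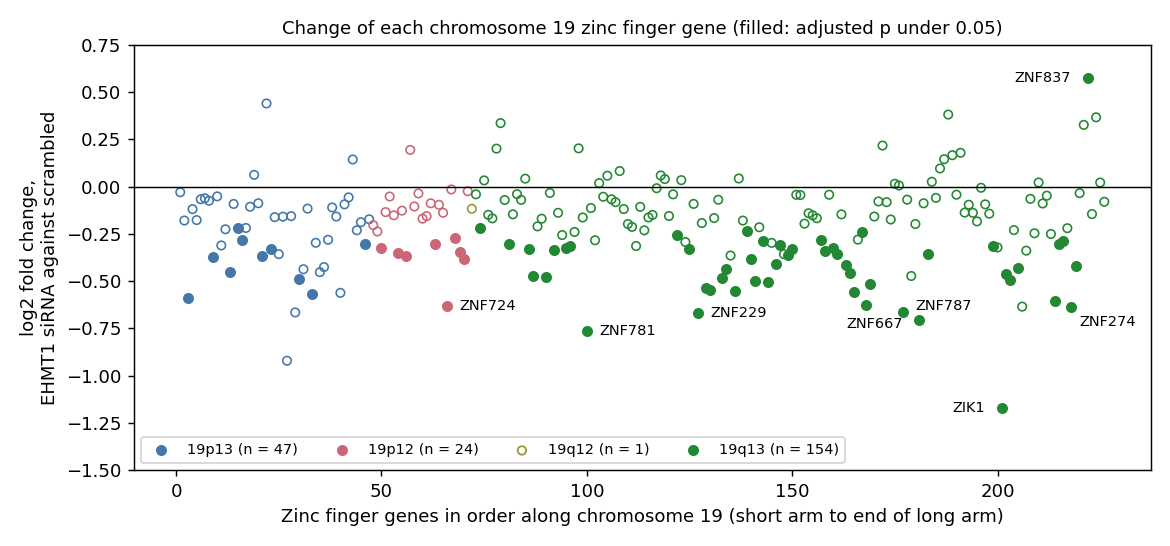
Log2 fold change of each of the 226 chromosome 19 zinc finger genes with EHMT1 siRNA against scrambled siRNA (vertical axis), in their order along the chromosome (horizontal axis, rank and not distance). Colours mark the bands, and filled points are the 67 genes that fell and the 1 that rose at an edgeR adjusted p under 0.05; 196 of the points lie below 0.

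Falls were found in each of the 3 large clusters, and over all genes tested 6.54% fell. In 19p12, the cluster near the centromere, 8 of 24 genes (33.3%) fell and 0 rose. The median log2 fold change was -0.15, and 23 of 24 were below 0. Those that fell were ZNF90, ZNF66, ZNF430, ZNF100, ZNF724, ZNF675, ZNF681 and ZNF726. The 24 genes summed to 601, 556 and 574 CPM in the scrambled libraries and 521, 519 and 509 CPM in the EHMT1 siRNA libraries, with no overlap and a mean 10.5% lower.

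On the long arm, in 19q13, 49 of 154 genes (31.8%) fell and 1 rose, with a median of -0.17 and 128 genes below 0. Without ZIK1, 48 of 153 (31.4%) fell. The 154 genes summed to 2959, 2837 and 2831 CPM with scrambled and 2551, 2533 and 2487 CPM with EHMT1 siRNA. Again the groups did not overlap, and the mean was 12.3% lower. In 19p13, 10 of 47 genes (21.3%) fell and 0 rose, with a median of -0.19 and 44 below 0. Their sum was 728, 674 and 701 CPM with scrambled and 606, 614 and 588 CPM with EHMT1 siRNA, 14% lower without overlap. Genes of a cluster are not replicates, so the clusters were not tested against each other. The cluster counts moved with the libraries. Without EHMT1 siRNA replicate 1, 2 or 3 the falls in 19p12 were 2, 2 and 1, in 19q13 32, 30 and 27 and in 19p13 5, 5 and 4, and without scrambled replicate 2 they were 11, 61 and 18.

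Within 19q13 the falls were counted by sub-band, with no test between sub-bands. Over all genes tested 6.54% fell, and in 15.5% all EHMT1 siRNA libraries lay below all scrambled ones. In 19q13.41, 14 of 28 genes (50%) fell, 27 were below 0, the median was -0.29, and in 21 (75%) all EHMT1 siRNA libraries lay below all scrambled ones. The 14 were ZNF577, ZNF649, ZNF350, ZNF432, ZNF841, ZNF616, ZNF766, ZNF480, ZNF880, ZNF528, ZNF808, ZNF701, ZNF888 and ZNF816. In the adjoining 19q13.42, 8 of 17 (47.1%) fell (ZNF415, ZNF347, ZNF677, ZNF845, ZNF525, ZNF761, ZNF813 and ZNF331), with a median of -0.24. In 19q13.12, 8 of 24 (33.3%) fell (ZNF566, ZNF567, ZNF850, ZNF829, ZNF420, ZNF569, ZNF570 and ZNF781). In 19q13.31, where the cluster is of similar size, 3 of 23 fell (ZNF227, ZNF112 and ZNF229) and the median was -0.15. These counts moved with the libraries. Without EHMT1 siRNA replicate 1, 2 or 3 the falls were 8, 9 and 7 in 19q13.41, 6, 6 and 6 in 19q13.42, 7, 3 and 2 in 19q13.12, and 1, 2 and 1 in 19q13.31. In these fits 3.16%, 2.54% and 2.76% of all genes tested fell, and 1 fall among 23 genes is near such shares. Without scrambled replicate 1 the falls were 12, 6, 4 and 1 in the same order of sub-bands, and 6.03% of all genes tested fell. Thus little was left of the contrast between 19q13.12 and 19q13.31 in several of these fits.

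Band 19q13.43, at the end of the long arm, held both the largest fall and the only rise. Of its 50 genes 13 (26%) fell (ZNF787, ZNF667, ZNF470, ZNF550, ZIK1, ZNF530, ZNF134, ZNF551, ZNF418, ZNF256, ZNF606, ZNF274 and ZNF544), 1 rose, and 39 were below 0, with a median of -0.14. Over all genes tested 6.54% fell and 5.81% rose. In the smaller groups of 19q13, ZNF302 in 19q13.11, ZNF296 in 19q13.32 and ZNF114 in 19q13.33 fell. On the short arm outside 19p12, the 10 falls were ZNF556 in 19p13.3, ZNF506 in 19p13.11, and ZNF317, ZNF426, ZNF561, ZNF562, ZNF441, ZNF440, ZNF844 and ZNF136 among the 37 genes of 19p13.2. ZNF536, the single gene of 19q12, was not called (log2 fold change -0.12).

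**Figure D2:**
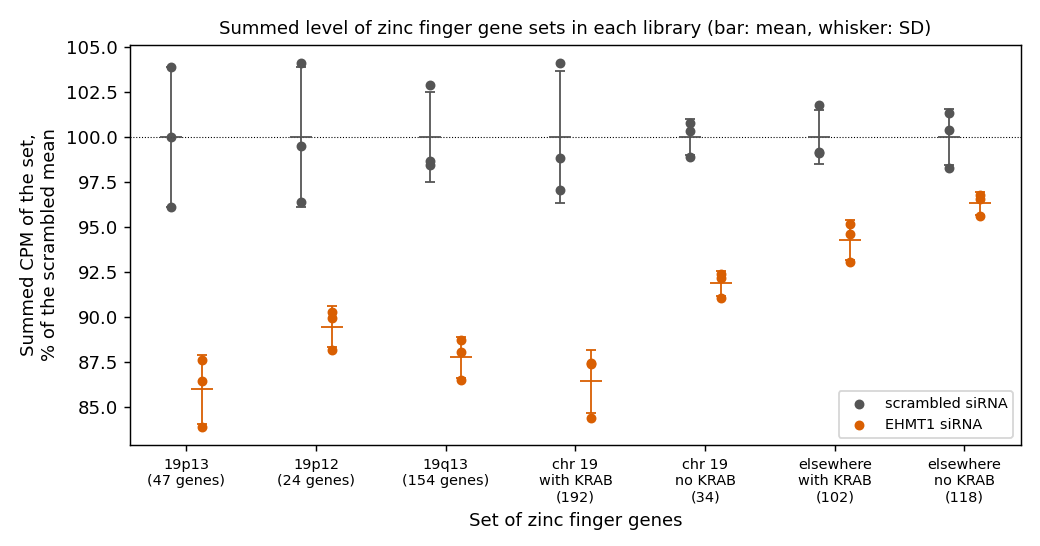
Summed CPM of 7 sets of zinc finger genes in each library, as a percentage of the scrambled mean (vertical axis, which does not start at 0), with the mean and SD of 3 libraries per group. The EHMT1 siRNA libraries lie below the scrambled libraries in all 7 sets, by 14% in 19p13 and by 3.69% in the zinc finger genes of other chromosomes without a KRAB domain.

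The genes were then divided by whether their protein has a KRAB domain. A KRAB A box was found in the annotated protein of 192 of the 226 genes. Of these 63 (32.8%) fell and 0 rose, with a median log2 fold change of -0.21. ZIK1 is one of the 63. Among the 34 genes without a KRAB A box, 4 (11.8%) fell (ZNF781, ZNF787, ZNF296 and ZNF134), 1 rose (ZNF837), and the median was -0.07. Of all genes tested 6.54% fell, and of all protein-coding genes tested 8.49%, so the share without KRAB was not far above these. Family genes with transcripts above 50% GC also had a median of -0.07. The 2 groups were not matched for GC content, and its part in this split was not tested. Summed over the genes, the KRAB group was 13.6% lower and the other group 8.14% lower.

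Zinc finger genes elsewhere in the genome had medians nearer to 0. Of 220 ZNF genes on other chromosomes 33 fell and 3 rose (15% and 1.36%), with a median of -0.05. Of the 102 among them with a KRAB A box 15 (14.7%) fell and 1 rose (median -0.06). Of the 118 without one 18 (15.3%) fell and 2 rose (median -0.03). Of 796 other protein-coding genes on chromosome 19, 93 fell and 38 rose (11.7% and 4.77%), with a median of -0.04. These sets are described by counts and medians of the same fit. The differences between them were not tested, because genes that share libraries and duplicated sequence are not independent.

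**Figure D3:**
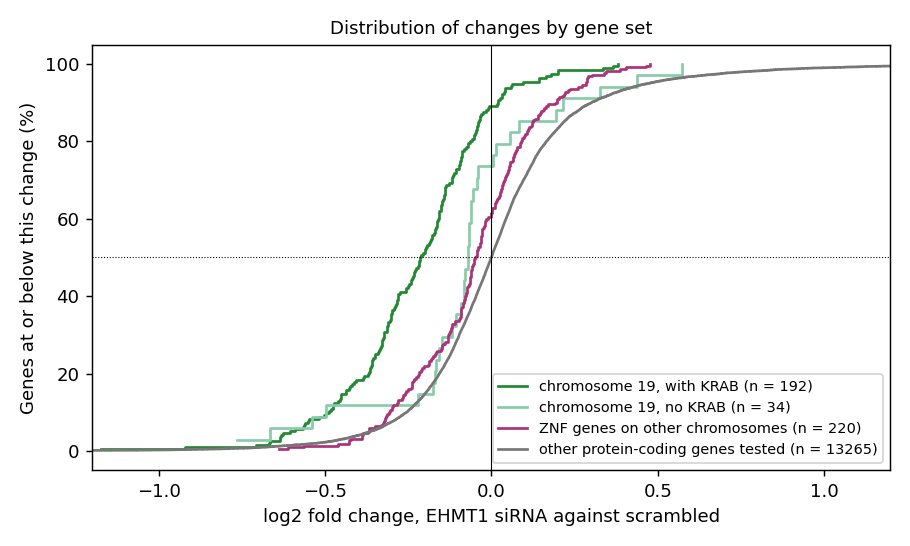
Cumulative share of genes (vertical axis, %) at or below each log2 fold change (horizontal axis, limited to changes of at most 1.2 in size) for chromosome 19 zinc finger genes with a KRAB A box (n = 192) and without (n = 34), ZNF genes on other chromosomes (n = 220) and other protein-coding genes tested (n = 13265). The curve of the KRAB genes of chromosome 19 lies to the left, crossing 50% at -0.21, where the other 3 cross it between -0.07 and 0.00.

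Other properties of the genes were set beside the change. Across the 226 genes, Spearman's rho between the log2 fold change and the number of zinc fingers (0 to 31, median 12) was 0.03. It was -0.03 with exon length, 0.00 with the length of the 3′ UTR and 0.15 with the GC content of the transcript. These correlations run across genes that share all 6 libraries and often their ancestry, so they are descriptions. By number of fingers, 4 of 14 genes with up to 5, 21 of 72 with 6 to 10, 26 of 92 with 11 to 15 and 16 of 48 with more fell, shares between 28.3% and 33.3%. The median log2 fold changes of these classes were -0.08, -0.20, -0.20 and -0.16, nearest to 0 in the genes with the fewest fingers. By level, 5 of 45 genes at up to 5 CPM, 8 of 36 at 5 to 10 CPM, 31 of 79 at 10 to 20 CPM and 23 of 66 above 20 CPM fell. The medians of those 4 level classes lay between -0.22 and -0.16.

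The GC content of these transcripts is low (median 42.3%, compared with 49.7% for other protein-coding genes tested), and values by GC class stand beside the result for that reason. At up to 40% GC the median log2 fold change was -0.17 in 60 family genes and 0.02 in the other protein-coding genes. At 40% to 45% it was -0.26 in 101 and -0.01, and at 45% to 50% it was -0.17 in 35 and -0.01. Above 50% GC it was -0.07 in 30 and 0.00 in the others. The share of family genes that fell was 33.3%, 35.6%, 20% and 13.3% in these classes, lowest in the class of highest GC content. The family median was lower in each of the 4 classes, and a fit corrected for GC content and length, chosen after seeing the data, called 84 falls (37.2% of the family), while 10.1% of all genes tested fell in that fit. The part of GC content in the result was not tested further.

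The promoters of the genes, which the choice of genes had not used, were searched for short words. RefSeq promoters (GRCh38.p14, 250 bases before to 50 after the gene start) were matched to 200 of the 226 genes. The word CCGGAAG, the core bound by ETS family transcription factors, was searched on both strands. So were CCAATCA, the CCAAT box in its long form, then the GC box GGGCGG, and also TCTCGCGA. These words were chosen after the data were seen. CCGGAAG was in 44.0% of the family's promoters, 17.9% of those of other protein-coding genes tested, 39.4% of those of ZNF genes on other chromosomes and 10.7% of all 27305 promoters in the table. The promoters of ZIK1, ZNF274 and ZNF787, a triple of genes with large falls, are shown in the gene's own direction, with CCGGAAG or its reverse complement in capitals, from chr19:57583895-57584194 (plus strand) for ZIK1, chr19:58182811-58183110 (plus strand) for ZNF274 and chr19:56121246-56121545 (minus strand) for ZNF787.
ZIK1: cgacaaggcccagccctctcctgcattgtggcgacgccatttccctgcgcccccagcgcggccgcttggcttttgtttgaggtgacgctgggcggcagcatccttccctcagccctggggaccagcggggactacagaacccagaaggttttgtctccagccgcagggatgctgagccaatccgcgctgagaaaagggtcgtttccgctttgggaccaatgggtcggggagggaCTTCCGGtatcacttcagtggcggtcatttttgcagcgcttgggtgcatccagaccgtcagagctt
ZNF274: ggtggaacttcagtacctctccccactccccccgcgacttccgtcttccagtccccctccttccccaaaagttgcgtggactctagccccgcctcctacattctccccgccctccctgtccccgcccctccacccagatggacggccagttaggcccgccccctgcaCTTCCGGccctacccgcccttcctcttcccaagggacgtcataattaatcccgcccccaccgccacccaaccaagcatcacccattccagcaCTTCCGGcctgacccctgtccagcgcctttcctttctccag
ZNF787: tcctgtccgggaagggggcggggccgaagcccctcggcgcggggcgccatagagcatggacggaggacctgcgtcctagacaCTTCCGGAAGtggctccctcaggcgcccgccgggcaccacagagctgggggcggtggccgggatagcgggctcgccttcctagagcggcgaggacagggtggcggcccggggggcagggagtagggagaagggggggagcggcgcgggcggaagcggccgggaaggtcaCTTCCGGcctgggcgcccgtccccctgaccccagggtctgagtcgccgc
The ZIK1 promoter holds 1 match, that of ZNF274 2 and that of ZNF787 3, of which a pair overlaps on opposite strands as a palindrome. The promoters of ZNF667, ZNF418 and ZNF837 hold none in this window.

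The calls were then counted by whether the promoter held the word. Of the 88 family promoters with CCGGAAG 34 belonged to genes that fell and 0 to the gene that rose, and of the 112 without it 27 fell and 1 rose. The median log2 fold changes were close, -0.19 and -0.16. Among the genes that fell 55.7% held the word, and among those not called 39.1% did. CCGGAAG was also in 47.9% of 169 promoters of family genes with KRAB and in 22.6% of 31 without. The part of the KRAB domain in the difference by calls was not tested. The word CCAATCA was in 28.5% of the family's promoters and 8.86% of those of other protein-coding genes, but in 13 of 57 cases the gene fell, compared with 48 of 143 without it. GGGCGG was equally frequent in both (69.5% and 69.4%), and TCTCGCGA was rare (1.5% and 2.32%). A match is a description of the letters in the window and says nothing of what binds there.

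ZIK1, a KRAB zinc finger protein named for its interaction with the RNA-binding protein HNRNPK, had the largest fall. It was at 4.02, 3.91 and 4.07 CPM in the scrambled libraries and at 1.75, 2.00 and 1.56 CPM in the EHMT1 siRNA libraries. The highest EHMT1 siRNA library was thus far below the lowest scrambled one, and 44.3% of the transcript was left (log2 fold change -1.17). These values are given without a test because the gene was chosen for its fall. Its exons overlap those of ZNF416 over 4.87% of their length, and ZNF416, with 8.66, 8.06 and 7.37 CPM against 7.40, 5.79 and 6.08 CPM, did not pass (log2 fold change -0.32, edgeR adjusted p = 0.0800).

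ZNF274, a KRAB zinc finger protein that binds the coding ends of other zinc finger genes and recruits SETDB1 there, fell. It was at 20.5, 21.7 and 20.6 CPM with scrambled and at 13.1, 13.9 and 13.4 CPM with EHMT1 siRNA. The groups were well separated and 64.4% was left (log2 fold change -0.63 ± 0.08 SE, edgeR adjusted p = 4.08e-05). Its call held in each fit that left out a library.

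ZNF787, a zinc finger protein without a KRAB domain, was among the most abundant per length, at 17.5 CPM per kb of exon. It was at 73.8, 85.3 and 77.1 CPM with scrambled and at 47.5, 48.3 and 53.3 CPM with EHMT1 siRNA. Its highest EHMT1 siRNA library was below its lowest scrambled library by more than the spread of either group, and 63.1% was left (log2 fold change -0.66 ± 0.07 SE, edgeR adjusted p = 1.06e-05). It was the only family gene called as a fall in every alternative fit, both strand columns included.

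ZNF667, a KRAB gene that lies head to head with the antisense transcript ZNF667-AS1, fell from 23.4, 20.4 and 23.5 CPM to 13.8, 13.8 and 13.5 CPM. The groups did not overlap and 61.2% was left (log2 fold change -0.71 ± 0.08 SE, edgeR adjusted p = 2.40e-05). ZNF667-AS1 stayed at 20.1 ± 0.543 CPM and 19.9 ± 0.666 CPM (SD, n = 3 each; log2 fold change -0.01, edgeR adjusted p = 0.938). Counts of the majority strand column gave nearly the same value for ZNF667 (log2 fold change -0.70, edgeR adjusted p = 3.57e-05).

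Other large falls had lower levels or uncertain calls. ZNF781 was lower by 0.76 on the log2 scale, at 2.37, 2.55 and 2.35 CPM against 1.47, 1.47 and 1.34 CPM, without overlap (edgeR adjusted p = 0.00874), but its call was lost without EHMT1 siRNA replicate 3 (adjusted p = 0.0552). ZNF229 was at 5.92, 4.36 and 6.17 CPM against 3.34, 3.37 and 3.66 CPM, with scrambled replicate 2 nearest to the EHMT1 siRNA libraries (log2 fold change -0.67, edgeR adjusted p = 0.00580). ZNF724 was at 3.68, 3.23 and 3.11 CPM against 2.34, 2.17 and 1.95 CPM (log2 fold change -0.63, edgeR adjusted p = 0.0137). ZNF724 is uncertain: 44.8% of its exons overlap another gene, and its call was lost without EHMT1 siRNA replicate 2 (adjusted p = 0.0650) or 3 (0.0836). For 10 of the 67 genes that fell, more than 10% of the exon length overlaps another gene. Unstranded counts cannot assign reads from such shared stretches, and the count column used here leaves them out of both genes.

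ZNF813 and ZNF525, KRAB genes of 19q13.42, both fell. ZNF813 was at 16.0, 14.6 and 13.7 CPM against 10.6, 9.11 and 9.11 CPM (log2 fold change -0.62, edgeR adjusted p = 0.000366). ZNF525 was at 12.3, 11.6 and 12.3 CPM against 7.90, 9.02 and 7.69 CPM (log2 fold change -0.56, edgeR adjusted p = 0.000894). In neither did the groups overlap. ZNF418, in 19q13.43, was at 6.05, 7.13 and 6.74 CPM against 4.38, 4.39 and 4.30 CPM, with little spread among the EHMT1 siRNA libraries (log2 fold change -0.61, edgeR adjusted p = 0.00236).

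On the short arm, ZNF556 was at 27.1, 22.8 and 26.5 CPM against 18.4, 15.5 and 16.9 CPM (log2 fold change -0.59, edgeR adjusted p = 0.000269). ZNF136 was at 18.2, 16.0 and 16.4 CPM against 11.2, 11.6 and 11.4 CPM (log2 fold change -0.57, edgeR adjusted p = 0.000279). Both sets of libraries were apart in each gene. ZNF331, an imprinted KRAB gene in 19q13.42, was at 30.4, 26.5 and 25.7 CPM with scrambled and at 19.8, 19.5 and 18.3 CPM with EHMT1 siRNA. It fell without overlap to 69.9% of the scrambled level (log2 fold change -0.52 ± 0.08 SE, edgeR adjusted p = 0.000387).

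ZNF91 and ZNF93 are KRAB proteins of 19p12 known as repressors of retrotransposons, ZNF91 of SVA elements and ZNF93 of LINE-1 elements. ZNF91 was at 13.2, 12.5 and 14.9 CPM with scrambled and at 13.1, 13.8 and 13.3 CPM with EHMT1 siRNA, so the groups overlapped (log2 fold change -0.02 ± 0.09 SE, edgeR adjusted p = 0.935). ZNF93 was at 37.0, 41.1 and 38.5 CPM against 34.2, 34.8 and 32.1 CPM. Its groups did not overlap, but it missed the threshold (log2 fold change -0.20 ± 0.07 SE, edgeR adjusted p = 0.0522) and passed it in 4 alternative fits, with DESeq2 among them (adjusted p = 0.0447).

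The most abundant family member per length was ZNF146, which consists almost only of zinc fingers, at 53.0 CPM per kb of exon. It was at 246, 219 and 211 CPM against 222, 214 and 208 CPM, overlapping groups (log2 fold change -0.07, edgeR adjusted p = 0.523). ZNF428, at 16.1 CPM per kb, was at 26.4, 24.7 and 33.5 CPM against 33.2, 26.5 and 29.8 CPM, also overlapping (log2 fold change 0.08, edgeR adjusted p = 0.680). Of the 3 most abundant genes per length, ZNF787 alone was called.

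ZNF837, a gene of 19q13.43 without a KRAB domain, was the only one that rose. It was at 2.16, 2.28 and 2.50 CPM with scrambled and at 3.26, 3.25 and 3.78 CPM with EHMT1 siRNA, without overlap (log2 fold change 0.57 ± 0.15 SE, edgeR adjusted p = 0.0205). It did not pass without EHMT1 siRNA replicate 1, 2 or 3 (edgeR adjusted p = 0.0572, 0.0667 and 0.130) and without scrambled replicate 1 (0.0564). Nearby in the same band, ZNF497 (2.27, 2.65 and 2.73 against 3.31, 2.87 and 3.39 CPM, adjusted p = 0.197) and ZNF132 (2.54, 2.10 and 2.92 against 3.19, 3.45 and 3.12 CPM, adjusted p = 0.156) were also above scrambled in every EHMT1 siRNA library without being called by edgeR. Both were chosen for mention after their values were seen, and 45.3% of the exon length of ZNF497 overlaps another gene. In 5 of the 50 genes of the band (10%) all EHMT1 siRNA libraries lay above all scrambled ones, where 15.4% of all genes tested did.

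**Figure D4:**
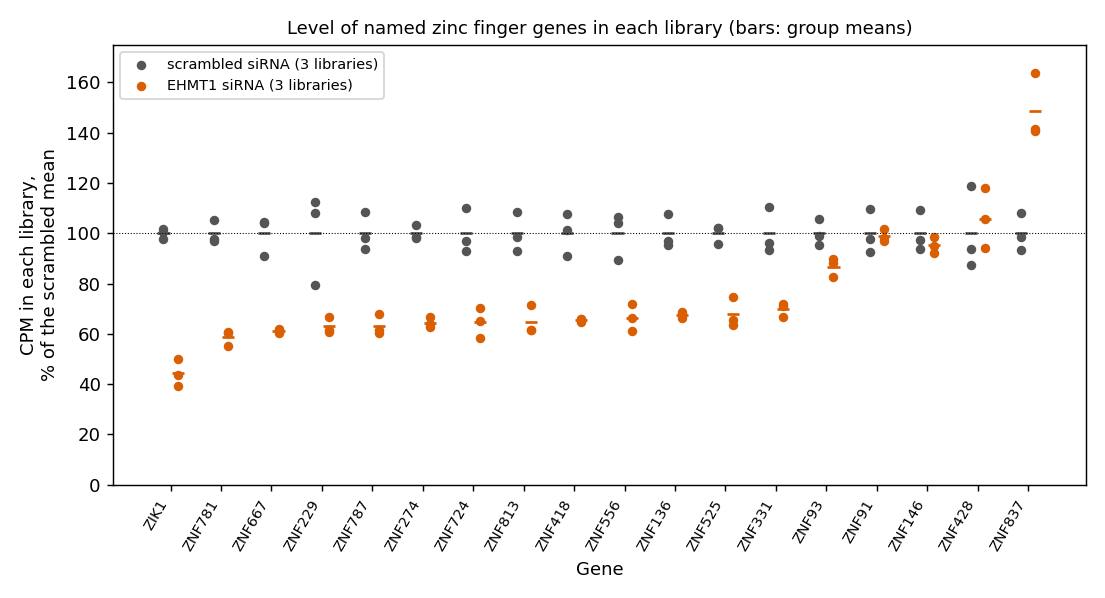
CPM of 18 named genes in each library, as a percentage of the gene's scrambled mean (vertical axis from 0), with group means as bars. The EHMT1 siRNA points of the first 13 genes, from ZIK1 to ZNF331, lie below all scrambled points, those of ZNF91, ZNF146 and ZNF428 overlap them, and those of ZNF837 lie above them.

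At the edge of the count filter, ZNF709 was just inside with 16, 3, 16, 16, 9 and 5 counts in scrambled replicates 1 to 3 and EHMT1 siRNA replicates 1 to 3. ZNF57, with 7, 12, 12, 8, 6 and 4 counts, and ZNF534, with 6, 9, 6, 10, 8 and 4, were just outside. Of the 15 genes below the filter, 8 had 0 counts in every library (ZNF257, ZNF492, ZNF676, ZNF723, ZNF728, ZNF729, ZNF98 and ZNF99). Among the 158 genes that passed the filter and were not called, log2 fold changes ran from -0.92 (ZNF763, at 0.400 CPM with scrambled siRNA) to 0.44 (ZNF491).

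The proteins that KRAB zinc finger proteins work with were followed in a list of their own. Of its 26 genes of the corepressor machinery 2 fell (7.69%, near the 6.54% of all genes tested) and 0 rose, with a median log2 fold change of -0.08. These were CBX1, a heterochromatin protein that binds methylated lysine 9, at 186 ± 6.62 CPM against 149 ± 4.33 CPM (SD, n = 3 each; log2 fold change -0.32, edgeR adjusted p = 0.00126), and MORC2, an ATPase of the HUSH silencing pathway, at 82.1 ± 8.30 CPM against 65.4 ± 0.853 CPM (SD, n = 3 each; log2 fold change -0.33, edgeR adjusted p = 0.00428). For MORC2, 25.8% of the exon length overlaps another gene. Neither TRIM28 (log2 fold change -0.12, edgeR adjusted p = 0.168) nor SETDB1 (-0.08, adjusted p = 0.484) was called. Of 9 genes of the EHMT1 complex and its readers 3 fell (33.3%, beside 6.54% of all genes tested) and 0 rose. They were EHMT1, which is the target of the siRNA itself, EHMT2, and CBX1, which is in both lists. EHMT2 was at 106 ± 7.77 CPM against 91.7 ± 1.64 CPM (SD, n = 3 each; log2 fold change -0.21, edgeR adjusted p = 0.0334), and its call was lost without EHMT1 siRNA replicate 1, 2 or 3 (adjusted p = 0.157, 0.113 and 0.139). The part of these genes in the change of the zinc finger family was not tested.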

How the data were processed

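Total RNA of RD cells was extracted with Trizol, and libraries of poly-A RNA were prepared with NEBNext Ultra reagents (per the labels' protocols). STAR 2.5, HTSeq 0.6.1, DESeq2, CASAVA, bcl2fastq and the build hg19 were used, per the submitters' processing notes. The authors deposited raw counts per gene, 1 file per library, in the layout of STAR's gene count table, with an unstranded column (used here) and 1 column for each strand. Of the 61552 identifiers, 58352 are in GENCODE release 29 on GRCh38, and the annotation the authors used is not given in the sources used here, so the only coordinates given are those of the RefSeq promoter table. Reads not assigned to a single gene (20.0% to 21.2%) were left out. In this layout they include reads that map to several places or match several genes. How many of them came from this duplicated family was not determined.

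Sample titles gave the groups. Counts were fitted in R 4.3.3 with edgeR 4.0.16 (filterByExpr with a minimum count of 10, TMM, robust quasi-likelihood F test, group only), adjusted by Benjamini-Hochberg over all 18646 genes tested, with a threshold of 0.05. CPM are counts scaled by library size and TMM factor. Scripts were tested on simulated data. KRAB A boxes were found with HMMER 3.4 in the proteins of the annotation. Alternatives were RLE and upper quartile size factors, no filter or 1 CPM in 3 libraries, DESeq2 1.42.0, limma-voom (limma 3.58.1), each strand column, a replicate block, a threshold of 0.01, leaving out each library, and a correction for GC content and length, which was added after seeing the data.

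The members and lists were chosen with earlier results of these data known. The rule for named genes took EHMT1, EHMT2, ZIK1, the 12 largest falls and rises among called members, ZNF274, ZNF91, ZNF93, ZNF331, the 3 members with the highest level per kb, called genes of the 2 lists and members at the edge of the count filter.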

Additional observations from a re-analysis of the deposited data

How the results depend on the processing

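The 67 genes that fell had the same direction in all alternative fits except that on the minority strand column, and 58 were called under every other scaling, filter and tool. On the minority strand column 54 of the 67 had the same direction, but not all of the 67 were tested there. Values were obtained there for 187 of the 226 family genes, and not for ZNF229, ZNF418, ZNF724 and ZNF781. On that column 1 family gene fell and 0 rose (0 in 19p12, 1 and 0 in 19q13, 0 in 19p13), 0 genes of the corepressor list and 1 of the EHMT1 complex list fell, the 19q13 median was -0.13 and ZIK1 was at -0.33. At an adjusted p of 0.01, 33 genes fell and 0 rose (1 in 19p12, 28 and 0 in 19q13, 4 in 19p13). The share of all genes that fell at this stricter threshold is not given here, so these counts cannot be set against it. Leaving out 1 library at a time gave 32 to 90 falls and 0 to 1 rises in the family, 1 to 11 falls in 19p12, 27 to 61 falls and 0 to 1 rises in 19q13, 4 to 18 falls and a median of -0.27 to -0.16 in 19p13, and 2 to 5 falls in the corepressor list. With GC content and length corrected that list had 4 falls and 1 rise. The cause of these differences was not tested. The sign turned for ZNF91 on the majority strand column (0.0125), with upper quartile size factors (0.0014) and over the left-out libraries (-0.0723 to 0.0534), and over these for ZNF428 (-0.0085 to 0.22) and ZNF709 (-0.65 to 0.16), all 3 uncalled.

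With a replicate block 79 genes fell and 1 rose (9 falls in 19p12, 57 in 19q13, 13 in 19p13), with 8.75% of all genes tested falling in that fit and 6.54% without the block, all 67 were called again, and ZNF93 passed (adjusted p = 0.0269). Deviations of same-numbered libraries correlated at 0.06, 0.02 and 0.02, so the numbers were not taken as pairs. Scrambled replicate 2 correlated slightly better with EHMT1 siRNA replicate 3 (0.019) than with its own number (0.015). Each other library correlated best with its own number. ZNF709, with 3 to 16 counts per library and an SE of 0.56 on the log2 scale, carries too few counts for a change of the sizes seen here to be detectable.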

Other observations

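The 3′ UTRs of genes that fell, where small RNAs pair with transcripts, were searched for words of 7 letters over-represented in 256 fallen genes outside the family, so the words were chosen on these data. The leading words were ACGAGTC (6.25% of those genes and 0.850% of 11062 genes not called), CGAGTCT (7.42% and 1.62%) and CGAGTCA (6.25% and 1.44%), which share the core CGAGTC on the transcript strand. In the family the core was in 3 of 65 fallen genes with a 3′ UTR (4.62%) and 5 of 152 not called (3.29%), and it was in 5.31% of other protein-coding genes. The 3 were ZIK1, ZNF787 and ZNF681, and the first 2 are among the largest falls described above. Their sites are shown with the core in capitals.
ZIK1: cagaagacaacgCGAGTCacatgtgaactg
ZNF787: atccttagagctCGAGTCgttccttcccct
Of the other protein-coding genes with the core 17.4% fell, and of those without it 7.71% did. The 256 genes on which the words were chosen are counted in these 2 shares, so an excess was built in by the choice. These are values of a word chosen after seeing the data, and 62 of the 65 fallen family genes with a 3′ UTR lack it.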
